A study of Rattus norvegicus with 35 samples.

Results

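The genes described here load peptides onto MHC class I molecules or build the proteasome that cuts those peptides. They are Tap1, Tap2, Psmb8, Psmb9, Psmb10, Psme1, Psme2 and B2m. The genes were listed by name and not by a cut-off on a measured value, but with earlier results of these data known. Of these 8 genes, 7 are represented on the array, by 11 of the 8740 probe-sets tested, out of 4736 genes with a single symbol. Psmb10 has no probe-set with its symbol in the annotation used, and is named only where promoters are shown.

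Expression was measured in rat cardiac cells on 35 rat genome arrays of Affymetrix, each with 1 RNA sample. The cells came from ventricles of neonatal hearts and were either enriched for cardiac myocytes (CM) or grown as cultures of fibroblasts (FB). CM and FB received 10 J/m2 of UVC (UV), 8.5 Gy of X-rays as ionising radiation (IR), or cyclic stretch as mechanical stress (MS). RNA was taken 24 h after radiation or at the end of 24 h of stretch. Controls were sham-irradiated, or grown without stretch on plates of the same kind coated with collagen I, and each group has 3 arrays except for the 2 controls of CM after UV. After UV or IR the CM were enriched further by elutriation, which separates cells by size and density, but CM exposed to MS and all FB were not. Arrays were compared as pairs by the number of their experiment. For CM after UV only experiments 1 and 2 have a control, so that this comparison rests on 2 pairs and the treated array of experiment 3 adds its level alone. The titles do not say which animals each culture came from. The p-values therefore measure the spread between these samples.

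Every nucleated cell displays peptides of its own proteins on MHC class I, where cytotoxic T cells can read them. The peptides are cut by the proteasome, carried from the cytosol into the endoplasmic reticulum by the transporter TAP, a dimer of the products of Tap1 and Tap2, and bound there by a class I heavy chain together with beta-2 microglobulin, the product of B2m. In cells exposed to interferon the catalytic subunits Psmb8, Psmb9 and Psmb10 replace the constitutive subunits Psmb5, Psmb6 and Psmb7, which gives the immunoproteasome. Psme1 and Psme2 encode the alpha and beta subunits of PA28, a ring that caps the proteasome and helps its products to leave.

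The genes lie at 4 places in the rat genome (RefSeq, assembly GRCr8). Tap2, Psmb8, Tap1 and Psmb9 have their start sites within 16704 bases of the MHC region on chromosome 20, and Tap1 and Psmb9 are transcribed away from each other from start sites 457 bases apart. Psme1 and Psme2 start 13780 bases apart on chromosome 15, B2m lies on chromosome 3 and Psmb10 on chromosome 19. All 8 have an entry among the 33469 RefSeq promoters, which run from 250 bases before to 50 bases after the start. The stretches below are shown because the genes share a word there. The capitals mark GAAANNGAA, the core of the interferon-stimulated response element, on either strand (as its reverse complement in Tap1 and Psmb8).
Tap1 (chr20:4668635-4668683, minus strand): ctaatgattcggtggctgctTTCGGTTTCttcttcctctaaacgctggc
Tap2 (chr20:4652309-4652357, minus strand): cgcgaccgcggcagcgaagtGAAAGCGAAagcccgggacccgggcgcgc
Psmb8 (chr20:4657012-4657054, minus strand): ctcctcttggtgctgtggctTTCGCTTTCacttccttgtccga
Psmb10 (chr19:50743281-50743329, minus strand): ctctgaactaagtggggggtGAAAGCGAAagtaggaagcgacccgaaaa
Psme2 (chr15:33052776-33052824, minus strand): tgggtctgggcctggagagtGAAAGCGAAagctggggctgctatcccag
B2m (chr3:129549160-129549208, plus strand): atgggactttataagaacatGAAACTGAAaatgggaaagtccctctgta

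The promoters of 6 of the 8 genes hold GAAANNGAA, against 9.71% of all promoters of the same length. In Tap2, Psmb8, Psmb10 and Psme2 the match is part of the 13-base word GTGAAAGCGAAAG, read on either strand. It occurs in 5 of the 33469 promoters (0.0149%), and these 4 are among the 5. The word was picked from these sequences, as one of its length shared by the most of the 8 promoters. Its share of all promoters is therefore no test of the word. Of the other motifs searched on both strands, the NF-kB motif was found in 2 of the 8 (Tap1 and B2m, where it lies at most 137 bases before the start) and in 4.18% of all promoters. GGGCGG, the GC box, was found in 4 of the 8 (Tap1, Psmb9, Psme1 and Psme2) and in 33.1% of all, and TTCNNNGAA, the interferon gamma activated site, in 1 of the 8 (Psmb8) and in 8.87% of all. The promoter windows of Psmb9 and Psme1 hold no GAAANNGAA. These are matches of letters, and binding was not measured.

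Levels below are normalised intensities on a linear scale, comparable between arrays for 1 probe-set but not between probe-sets. Array values were raised to a floor of 6.88, and a value at the floor is not well above background. Differences are on the log2 scale with the standard error (SE) of the fit, and a probe-set is called when its p-value, adjusted by the Benjamini-Hochberg procedure over all 8740 probe-sets, is under 0.05. One Psme1 probe-set, rc_AA799484_at, lay at the floor or within 0.1 of it on every array and gives no information on Psme1.

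CM were recognisable by their markers: the summed level of 12 myocyte markers was 40199 to 63993 on CM arrays and 3846 to 28016 on FB arrays. The summed level of 9 fibroblast markers was 5955 to 14965 on CM arrays of the UV experiments, 13282 to 21049 on those of the IR experiments and 29465 to 36005 on those of the MS experiments, against 28558 to 38591 on FB arrays. CM arrays of the MS experiments thus lay within the FB range of these markers, and the CM groups are mixtures that differ between stressors. The summed level of 4 endothelial markers was 150 to 1774 on CM arrays and 77 to 124 on FB arrays. It also varied within CM groups, with 522 and 173 in control CM of the UV experiments. The summed level of 8 markers of macrophages and other leukocytes was 147 to 558 on CM arrays and 189.9 to 608 on FB arrays. Cd74 was at the floor on 31 of 35 arrays, C1qb on 32 and Itgam on 27. On 9 arrays the deposited values stand on a scale with a trimmed mean of 1001.5 to 1001.7, against 200.3 to 200.4 on the other 26, which the scaling removed.

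After UV, genes of peptide loading and of the immunoproteasome rose in both populations. In CM, 8 of the 11 probe-sets were higher, which stand for Tap1, Tap2, Psmb8, Psmb9, Psme2 and B2m, and none was lower. Of all probe-sets tested, 8.62% were called higher in this comparison. In FB, 9 of the 11 were higher, of the same genes and of Psme1 through 1 of its 3 probe-sets, against 11.7% of all. The median change over the 11 probe-sets was 1.15 in CM and 1.15 in FB, while that over all probe-sets was 0 in both.

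**Figure D1:**
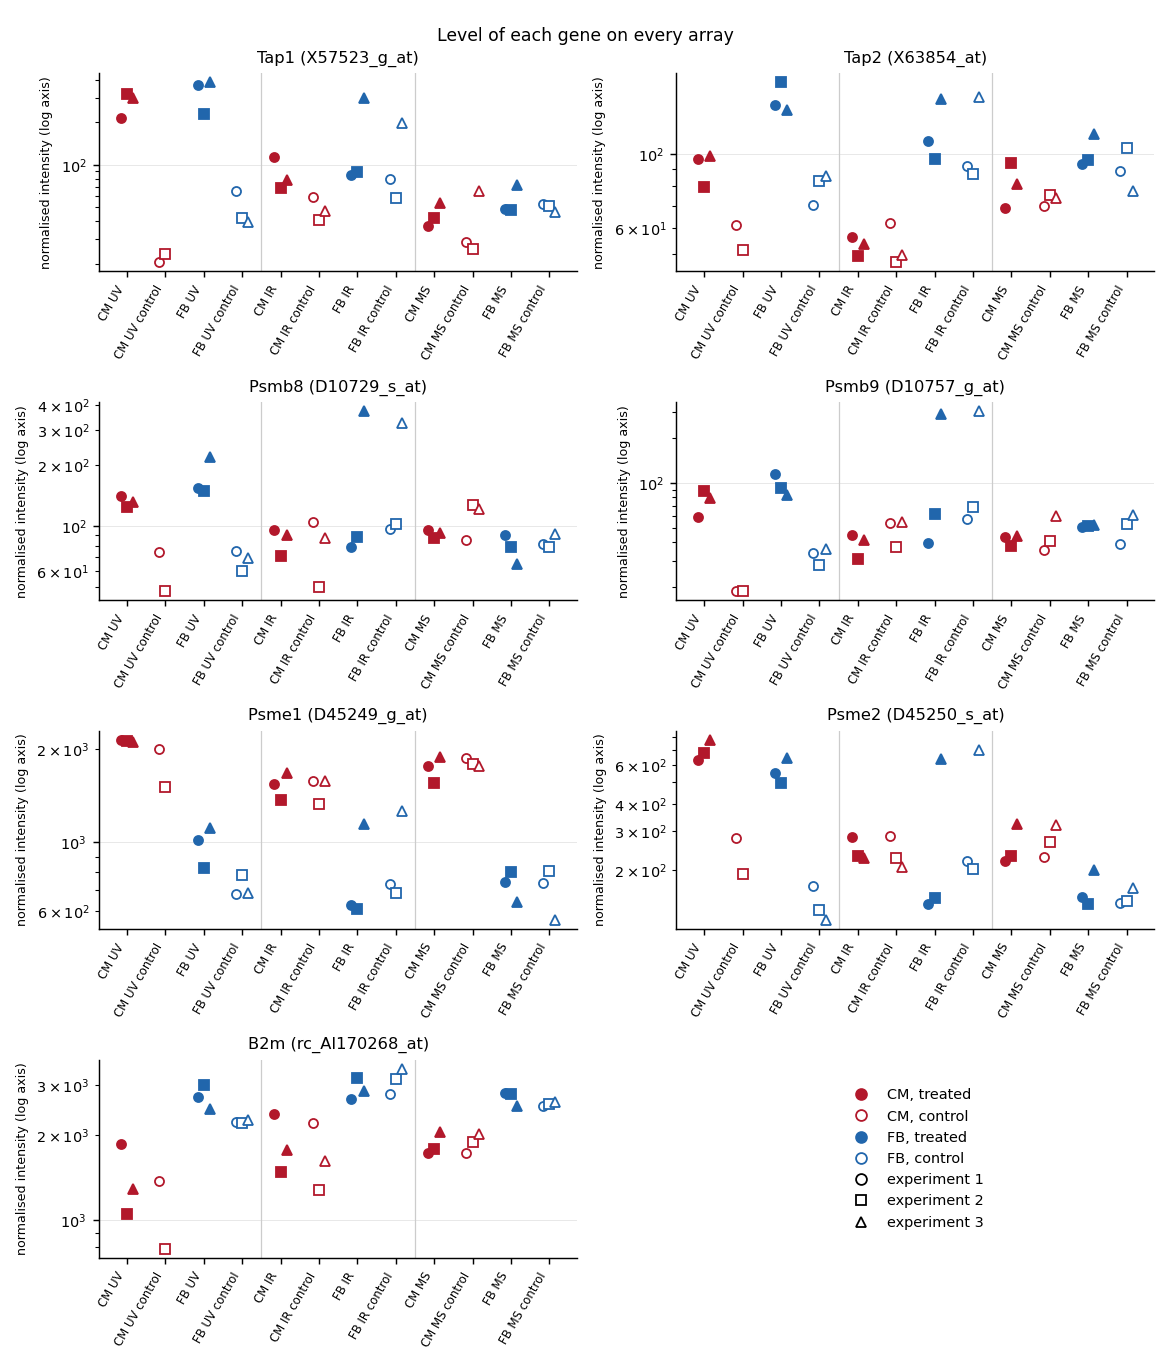
Normalised intensity (log axis) of 1 probe-set for each of the 7 genes on every array, by group, with treated groups (filled) left of their controls (open), CM in red, FB in blue and the marker shape for the experiment number. UV-treated arrays of Tap1, Tap2, Psmb8, Psmb9 and Psme2 lie above all their controls, and both FB arrays of IR experiment 3 stand high for Tap1, Tap2, Psmb8, Psmb9, Psme1 and Psme2 against the other FB arrays of the IR experiments.

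Tap1 gave the largest rise of the 11 probe-sets in both populations. Its probe-set X57523_g_at gave 214, 317 and 298 in UV-treated CM, against 20.5 and 23.4 in their controls. The rise was 3.57 (SE 0.26, adjusted p = 5.16e-06), 11.9-fold, and ranked 4 among all 8740 probe-sets in that comparison. The same probe-set gave 371, 228 and 385 in UV-treated FB, against 65.3, 42.0 and 39.8 in control FB, a rise of 2.74 (SE 0.21, adjusted p = 1.89e-06). Treated and control arrays do not overlap in either population, and every pair moved up.

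The other Tap1 probe-set, X57523_at, rose as well. It gave 201, 412 and 274 in UV-treated CM and 81.0 and 113 in control CM, a rise of 1.59 (SE 0.15, adjusted p = 3.39e-05). In UV-treated FB it gave 231, 251 and 214, against 102, 115 and 97.0 in control FB, a rise of 1.15 (SE 0.13, adjusted p = 2.59e-05). The probe-sets of Tap1 thus gave the same direction and different sizes.

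Tap2, the partner of Tap1 in the transporter, also rose in both populations. Tap2 gave 96.7, 79.4 and 99.0 in UV-treated CM and 61.3 and 51.4 in control CM, a rise of 0.64 (SE 0.15, adjusted p = 0.00961). In UV-treated FB it gave 140.1, 164 and 136, against 70.2, 82.9 and 85.6 in control FB, a rise of 0.88 (SE 0.12, adjusted p = 1.41e-04). No treated array overlaps a control array. In CM the rise was 0.62 without experiment 1 and 0.66 without experiment 2, each of which leaves 1 pair, and neither was called. Such fits dropped the arrays of that number from every comparison at once, so that fewer arrays also set the spread.

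The immunoproteasome subunit Psmb9 rose in both populations. Its probe-set D10757_g_at gave 59.2, 87.7 and 78.9 in UV-treated CM, against 18.9 and 18.7 in control CM, a rise of 1.94 (SE 0.21, adjusted p = 8.01e-05). In UV-treated FB it gave 115, 91.8 and 83.2, against 33.6, 27.9 and 36.2 in control FB, a rise of 1.57 (SE 0.17, adjusted p = 3.02e-05). All treated arrays lie above all controls.

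Its dimmer probe-set D10757_at gave 63.8, 78.2 and 60.7 in UV-treated CM, against 7.06 and 6.88 in control CM, the last of which is the floor. The fitted rise of 3.34 (SE 0.38, adjusted p = 1.13e-04) in CM therefore depends on where the floor was set: it was 1.99 with a pseudocount in place of the floor and 1.53 with a higher floor, both called. In UV-treated FB the levels were 105, 108 and 88.7, against 56.5, 18.7 and 14.1 in control FB, a rise of 2.02 (SE 0.31, adjusted p = 4.31e-04). Control FB array 1 stood above the other controls of that group.

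Psmb8, which takes the place of Psmb5, gave 141, 124 and 131 in UV-treated CM, against 74.3 and 47.5 in control CM. The rise was 1.15 (SE 0.22, adjusted p = 0.00382), and it was no longer called without the block for the experiment (adjusted p = 0.155). Without experiment 2, which leaves 1 pair, it was 0.92 and was not called. In UV-treated FB it gave 155, 149.8 and 219, against 75.1, 59.6 and 69.6 in control FB, a rise of 1.34 (SE 0.18, adjusted p = 1.51e-04). The groups do not overlap in either population.

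Of the subunits of PA28, Psme2 rose in both populations, while for Psme1 1 probe-set was called and in FB alone. Psme2, the beta subunit, gave 634, 676 and 778 in UV-treated CM, against 281 and 191 in control CM, a rise of 1.497 (SE 0.17, adjusted p = 1.15e-04). In UV-treated FB it gave 554, 495 and 644, against 169.7, 132 and 119 in control FB, a rise of 2.02 (SE 0.14, adjusted p = 8.19e-07), which is the smallest adjusted p of the 11 probe-sets.

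For Psme1, the alpha subunit, the brightest probe-set, D45249_at, gave 2472, 3181 and 2942 in UV-treated CM and 2351 and 2104 in control CM. Its difference of 0.33 (SE 0.12) did not pass the test (adjusted p = 0.0852), and neither did 0.18 (SE 0.10) in FB (adjusted p = 0.243). Psme1 probe-set D45249_g_at gave 1016, 829 and 1117 in UV-treated FB, against 681, 782 and 687 in control FB, a rise of 0.45 (SE 0.10, adjusted p = 0.00617). It was not called in CM (0.29, SE 0.13, adjusted p = 0.147). The call in FB was lost without experiment 1 (adjusted p = 0.155) or without experiment 3 (adjusted p = 0.149), and without the block (adjusted p = 0.176).

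B2m, the light chain of class I, changed least among the genes called. It gave 1857, 1050.3 and 1288 in UV-treated CM and 1379 and 789 in control CM. These groups overlap, but both pairs moved up by a like amount, 0.43 in pair 1 and 0.41 in pair 2, and the rise was 0.42 (SE 0.08, adjusted p = 0.00244). In UV-treated FB it gave 2735, 3011 and 2472, against 2230.4, 2213 and 2253 in control FB, a rise of 0.29 (SE 0.06, adjusted p = 0.00412). Both calls of B2m rest on the pairing: without the block for the experiment the adjusted p was 0.355 in CM and 0.439 in FB. Leaving out experiment 1 in every comparison gave 0.41 in CM and 0.29 in FB (adjusted p = 0.129 in FB). Leaving out experiment 2 gave 0.44 in CM and 0.21 in FB (adjusted p = 0.121 in FB). None of these was called, though those without experiment 1 stayed close to the main values.

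Without regard to pairs, all UV-treated CM arrays lay above all control CM arrays for 9 of the 11 probe-sets, against 16.6% of all probe-sets. In FB this held for 9 of the 11, against 15.9% of all. The exceptions were the uninformative Psme1 probe-set in both populations, B2m in CM and Psme1 D45249_at in FB. Bulk RNA cannot tell more RNA per cell from more cells of a kind that holds this RNA. The summed level of the leukocyte markers was 276 to 361 in UV-treated CM, against 292 to 324 in control CM, and 307 to 356 in UV-treated FB, against 221 to 265 in control FB. Of the 8 markers, 2 were higher in FB after UV (Cd14 and Csf1r, by 0.95 and 0.92) and none in CM, where Itgam was lower. Of the 12 myocyte markers, 10 were lower in FB after UV, where their summed level was 8678 to 12299 in treated FB, against 20876 to 24457 in control FB. Of all probe-sets, 8.16% were called lower in CM after UV and 11.2% in FB. In CM 2 of the 12 myocyte markers were lower. Of the 9 fibroblast markers 3 were lower in CM, with a summed level of 5955 to 10887 in UV-treated CM, against 8661 to 14965 in control CM, and 3 were lower in FB, with 28558 to 33954 in UV-treated FB, against 35545 to 38591 in control FB. Of 4 smooth muscle markers 2 were lower in CM and 3 in FB, where their summed level was 3217 to 4506 in UV-treated FB, against 6584 to 7331 in control FB. The part of these shifts in the rises was not tested.

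**Figure D2:**
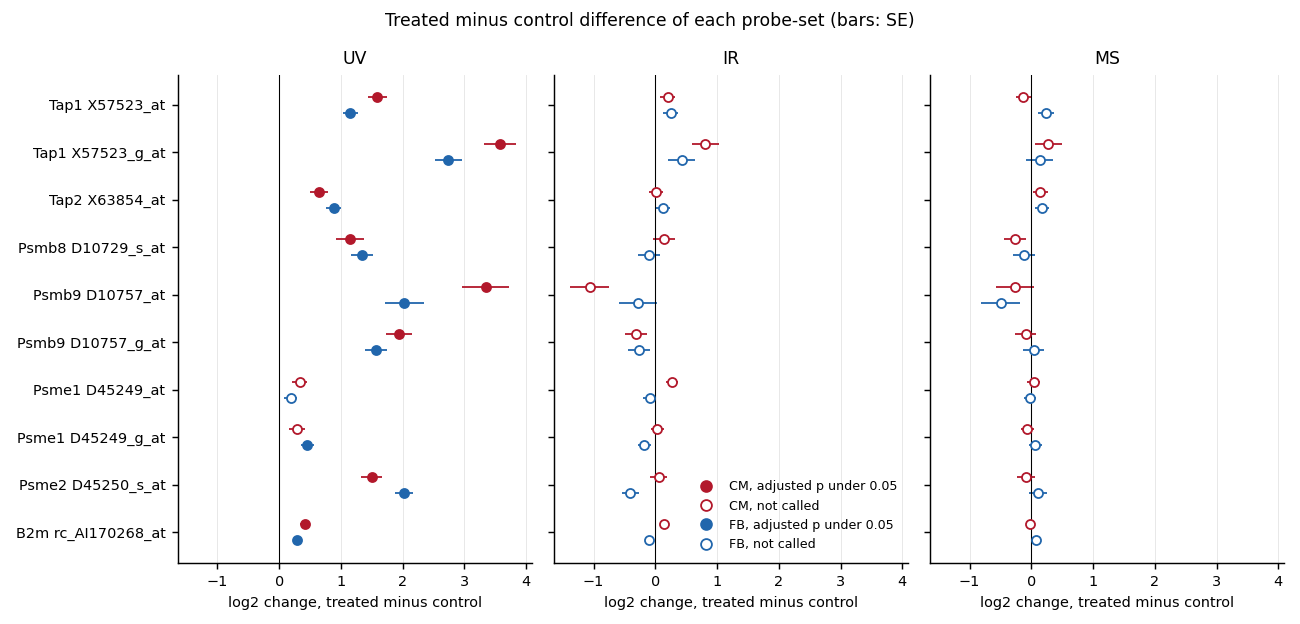
Fitted log2 change (x axis, treated minus control, bars are the SE) of the 10 informative probe-sets (rows) after UV, IR and MS, for CM (red) and FB (blue), filled where the adjusted p is under 0.05. Called probe-sets appear only in the UV panel, where Tap1 X57523_g_at reaches 3.57 in CM and 2.74 in FB.

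The size of the response to UV was compared between populations by the difference of the changes, CM minus FB. None of the 11 probe-sets was called (smallest adjusted p = 0.159, limma), while 6.35% of all probe-sets were called in either direction. Of the 11, 4 had an unadjusted p under 0.05, against 1734 of all 8740. The differences do not all run the same way. Those with an unadjusted p under 0.05 were 1.32 for Psmb9 D10757_at (95% interval 0.24 to 2.40), 0.83 for Tap1 X57523_g_at (0.10 to 1.57) and 0.43 for Tap1 X57523_at (3.76e-04 to 0.87), all larger in CM, and -0.52 for Psme2 (-1.01 to -0.03), larger in FB. For Psmb8 the difference was -0.19 (-0.82 to 0.44), for Tap2 -0.24 (-0.65 to 0.17) and for B2m 0.13 (-0.08 to 0.34). These intervals leave room for differences of either sign. The value of Psmb9 D10757_at is set by the floor in control CM, and it was 0.54 with a pseudocount in place of the floor and -0.10 with a higher floor.

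Neither IR nor MS gave a call. After IR none of the 11 probe-sets passed in CM or in FB, where 0.732% and 0.0801% of all probe-sets were called in either direction. In CM 4 of the 11 had an unadjusted p under 0.05, against 993 of all 8740, and in FB 1, against 599. After MS none passed, and 0% of all probe-sets were called in either population. None of the 11 had an unadjusted p under 0.05 after MS, against 414 of all 8740 in CM and 468 in FB. The difference CM minus FB was called for none of the 11 after IR or after MS (0.0686% and 0% of all called). After IR 3 of these differences had an unadjusted p under 0.05, against 757 of all 8740, and after MS 0, against 365.

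Among the values after IR, those of Tap1 and Psmb9 in CM lay farthest from 0. Tap1 X57523_g_at gave 115, 68.5 and 78.0 in IR-treated CM, against 59.4, 40.5 and 47.0 in control CM. The groups do not overlap and all 3 pairs moved up, but the difference of 0.81 (SE 0.21) did not pass (adjusted p = 0.142). Psmb9 D10757_at gave 27.9, 16.95 and 12.3 in IR-treated CM and 61.6, 26.1 and 33.0 in control CM, a difference of -1.06 (SE 0.31, adjusted p = 0.1997). All 3 pairs of Psmb9 moved down, and array 1 of the treated group lay above control array 2. For these genes the signs after IR thus differed. Treated CM arrays 1 and 3 were of another array lot than treated array 2 and the controls, and these differences were fitted without a block for lot.

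The remaining values after IR were small. In CM they lay between -0.31 (Psmb9 D10757_g_at) and 0.27 (Psme1 D45249_at). In FB all 11 lay between -0.40 (Psme2, SE 0.14, adjusted p = 0.582) and 0.43 (Tap1 X57523_g_at, SE 0.21, adjusted p = 0.780). After MS they lay between -0.27 and 0.28 in CM and between -0.49 and 0.24 in FB.

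The response to UV was then set against the response to IR within each population, as UV change minus IR change. In CM it was larger after UV for 6 of the 11 probe-sets (4.46% of all called in that direction): both of Tap1, both of Psmb9, Psmb8 and Psme2. The difference was 2.76 for Tap1 X57523_g_at (SE 0.34, adjusted p = 4.84e-04), 4.40 for Psmb9 D10757_at (SE 0.50, adjusted p = 2.91e-04) and 1.44 for Psme2 (SE 0.22, adjusted p = 0.00198). The size for Psmb9 D10757_at rests on the floor, and was 2.64 with a pseudocount and 2.05 with a higher floor, both called. That of Psmb8 was at the limit (1.01, SE 0.29, adjusted p = 0.0485) and was no longer called with a higher floor (adjusted p = 0.0515), with scaling alone (adjusted p = 0.0837) or without any 1 of the 3 experiments (adjusted p = 0.153 to 0.282). Tap2 (adjusted p = 0.0585) and B2m (adjusted p = 0.113) did not pass. Without experiment 2, 2 of the 11 were called, and without the block 3.

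In FB the UV response was larger for 9 of the 11 (7.12% of all called in that direction), of every gene among the 7, Psme1 through D45249_g_at alone. The difference was 2.42 for Psme2 (SE 0.20, adjusted p = 1.11e-05), 2.31 for Tap1 X57523_g_at (SE 0.30, adjusted p = 2.92e-04), 1.45 for Psmb8 (SE 0.26, adjusted p = 0.00235) and 0.40 for B2m (SE 0.09, adjusted p = 0.00910). Without experiment 2, 4 were called, and without the block 2. UV and IR cultures were different experiments, so that this difference compares them across experiments.

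The FB cultures of IR experiment 3 stood apart. Both its arrays, treated and control, lay above the other 4 FB arrays of the IR experiments for 9 of the 11 probe-sets, against 15.1% of all probe-sets. Other experiments had fewer such members: in CM of MS experiment 3 both arrays lay above the other 4 for 6 of the 11, against 6.91% of all, in CM of IR experiment 2 both lay below for 6, against 6.48% of all, and in CM of MS experiment 1 both lay below for 5, against 9.71% of all. Psmb9 D10757_g_at gave 289 in the treated and 302 in the control array of experiment 3, against 39.5 to 69.1 on the other 4. Psmb8 gave 372 in the treated and 323 in the control array, against 78.4 to 103. Psme2 gave 637 in the treated and 702 in the control array, against 141 to 219.9, and Tap1 X57523_g_at 296 in the treated and 197 in the control array, against 58.5 to 89.9.

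The control array of experiment 3 lay above the UV-treated FB arrays for Psme2 (495 to 644), Psmb8 (149.8 to 219) and Psmb9 D10757_g_at (83.2 to 115). Without experiment 3 of FB after IR, none of the 11 probe-sets was called in FB after IR and 9 of the 11 were still called in FB after UV. This alternative was added after the values had been seen. B2m did not share the pattern: its level was 2860.1 in the treated and 3427 in the control array of experiment 3, and 2674 to 3195 on the other 4.

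Other genes, chosen after their values were seen, stood high on the same arrays. Of all probe-sets, 15.1% lay above the other 4 arrays there, and the genes of the interferon lists that did so were not counted. Irf1, a transcription factor induced by interferon, gave 979 in the treated and 982 in the control array of experiment 3, against 209.6 to 298 on the other 4 FB arrays of the IR experiments. Gbp2, a GTPase induced by interferon, gave 544 in the treated and 568 in the control array, against 17.2 to 31.8. Nfkb1, which encodes a precursor and subunit of NF-kB, gave 1763 in the treated and 1598 in the control array, against 311 to 425. Eif2ak2, the kinase PKR, did not stand out, at 109 in the treated and 94.7 in the control array, against 81.9 to 114. In UV-treated FB Nfkb1 was lower than in control FB (203, 189 and 217, against 380.0, 424 and 480.2) and Eif2ak2 was higher (289, 163 and 267, against 90.0, 49.97 and 51.7). Nfkb1 was thus high beside the immunoproteasome genes in IR experiment 3 and lower beside them after UV. The summed level of leukocyte markers was 380 in the treated and 407 in the control array of experiment 3, within the range of the other 4 (254 to 608).

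**Figure D3:**
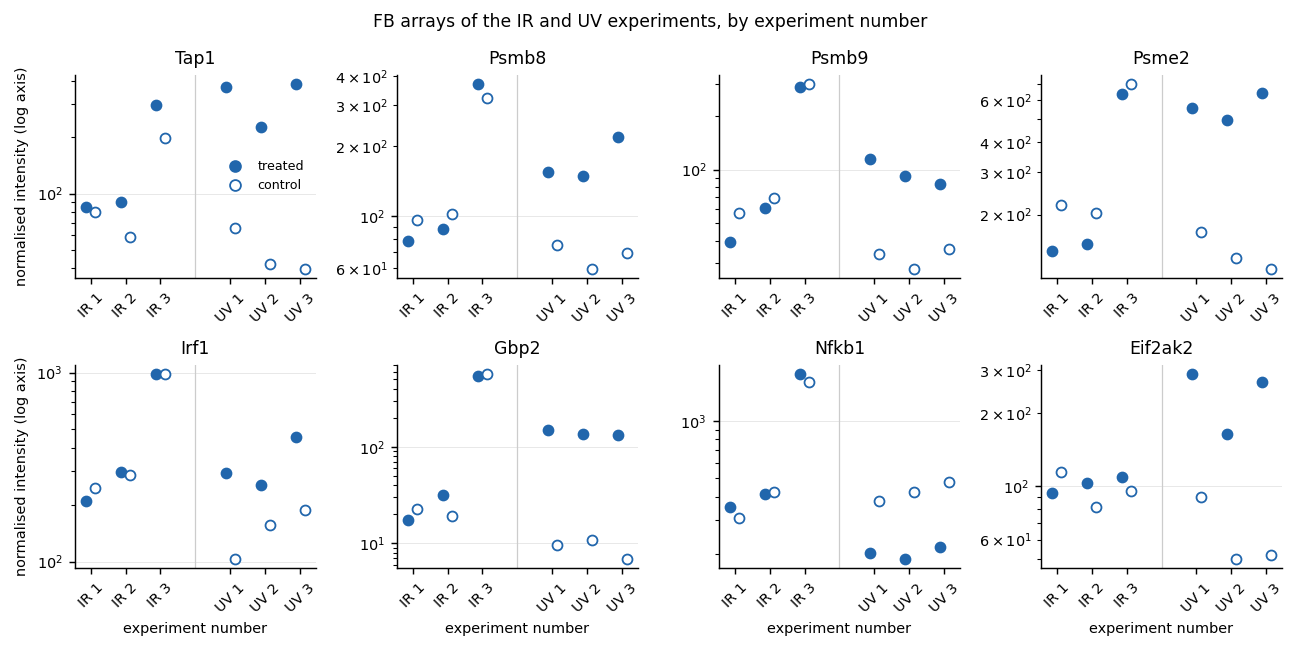
Normalised intensity (log axis) in FB by experiment number (x axis) for IR and UV, with treated arrays filled and left of their open controls, for Tap1 (X57523_g_at), Psmb8, Psmb9 (D10757_g_at), Psme2, Irf1, Gbp2, Nfkb1 and Eif2ak2. Both arrays of IR experiment 3 stand high for 7 of the 8 genes, which were chosen after their values were seen. In UV experiments treated and control arrays part.

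Levels in the controls were compared between populations, CM minus FB, separately for the controls of the UV, IR and MS experiments. Psme1 was higher in CM in each. For D45249_g_at the difference was 1.28 (SE 0.23, adjusted p = 0.00176) in the UV controls, 0.80 (SE 0.21, adjusted p = 0.0142) in the IR controls and 1.38 (SE 0.21, adjusted p = 8.32e-04) in the MS controls. In the MS experiments this probe-set gave 1874, 1791 and 1763 in control CM, against 739.9, 811 and 561 in control FB. For D45249_at the difference was 0.63 (adjusted p = 0.0490), 0.76 (adjusted p = 0.0102) and 1.11 (adjusted p = 0.00165) in the same order. CM and FB do not overlap in any of these 6 comparisons, but the share of all probe-sets without overlap was not counted. Without experiment 1, D45249_g_at was not called in the IR controls (adjusted p = 0.258) or the MS controls (adjusted p = 0.0507). Nor was D45249_at (adjusted p = 0.198 and 0.0538). In the UV controls this leaves 1 CM array, and the differences were 1.05 for D45249_g_at and 0.42 for D45249_at, neither called. Without experiment 2 the IR controls gave no call for D45249_g_at (adjusted p = 0.143) or D45249_at (adjusted p = 0.140). D45249_at was then also not called in the MS controls (adjusted p = 0.0557) or in the UV controls (0.69, again with 1 CM array). With a higher floor D45249_at was not called in the UV controls (adjusted p = 0.0546).

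B2m ran the other way. It gave 1379 and 789 in control CM of the UV experiments, against 2230.4, 2213 and 2253 in control FB, a difference of -1.10 (SE 0.22, adjusted p = 0.00387). In the IR controls the difference was -0.91 (SE 0.20, adjusted p = 0.00552). In the MS controls, where CM were not elutriated, it was -0.46 (SE 0.20, adjusted p = 0.125) and did not pass. Without experiment 3 B2m was not called in the UV controls (adjusted p = 0.0529) or the IR controls (adjusted p = 0.119). Without experiment 2 it was not called in the IR controls (adjusted p = 0.0528). The UV controls, with 1 CM array left, then gave -0.71 for B2m, not called. Tap2 was lower in CM of the IR controls (-1.01, SE 0.19, adjusted p = 0.00218) and not called in the others. Tap1 X57523_at was higher in CM of the MS controls (0.73, SE 0.21, adjusted p = 0.0266), while X57523_g_at gave -0.48 there (adjusted p = 0.498), so that the probe-sets of Tap1 disagree.

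In all, the UV controls gave 2 probe-sets higher and 1 lower in CM (10.6% of all called higher and 11.9% lower), the IR controls 2 higher and 2 lower (12.2% and 13%) and the MS controls 3 higher and 0 lower (10.3% and 12.2%). Without experiment 1, 1 of the 11 was called in the UV controls, 2 in the IR controls and 0 in the MS controls. Without the FB arrays of IR experiment 3, 7 were called in the UV controls, 3 higher and 4 lower. Those gained were Psme2, higher (adjusted p = 0.0224), and Tap1 X57523_g_at, Tap2 and Psmb9 D10757_at, lower (adjusted p = 0.0472, 0.0360 and 0.0393). The arrays left out are not UV controls, but all controls share 1 estimate of the spread. The differences themselves hardly moved: Tap1 X57523_g_at gave -1.13 with these arrays and -1.12 without, and Psmb9 D10757_at -1.82 and -1.81. The share of all probe-sets called under this alternative is not given here. The controls of the 2 populations were cultured and harvested differently, which cannot be told apart from the cell type. Psmb8 and both probe-sets of Psmb9 were not called in the controls of UV, IR or MS (adjusted p = 0.0892 to 1), but Psmb9 D10757_at passed in the UV controls also without experiment 3 (adjusted p = 0.0380) and with dim probe-sets left out (adjusted p = 0.0442).

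**Figure D4:**
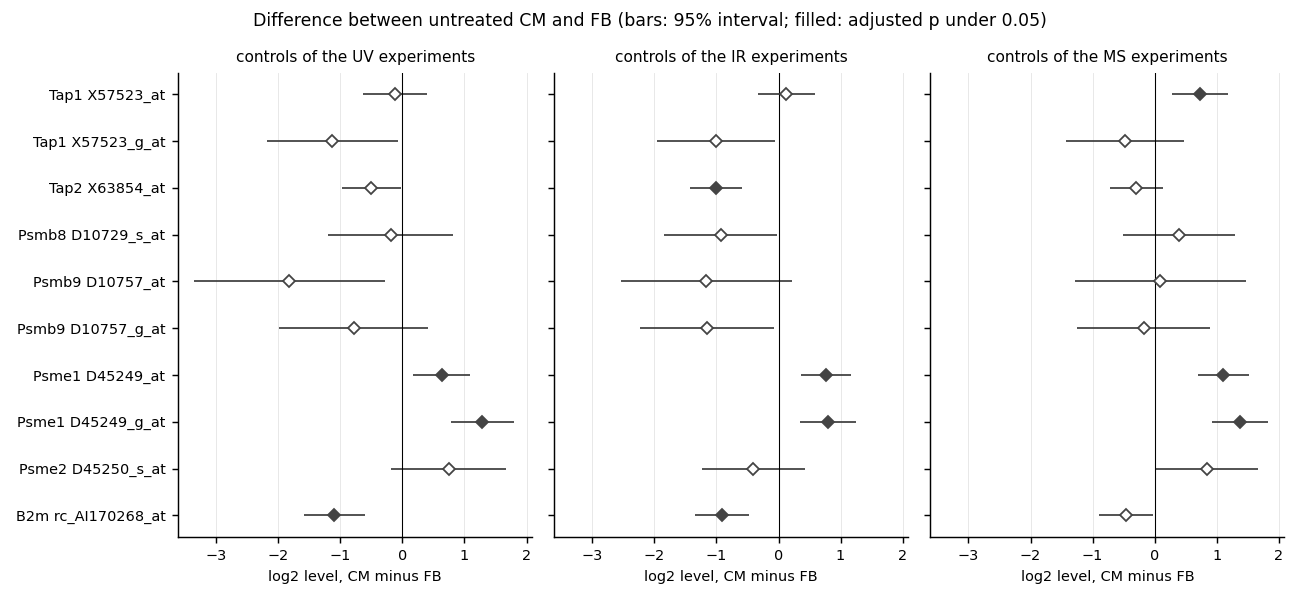
Difference in log2 level between control CM and control FB (x axis, CM minus FB, bars are the 95% interval) for the 10 informative probe-sets (rows), in the controls of the UV, IR and MS experiments, filled where the adjusted p is under 0.05. Psme1 lies to the right of 0 in every panel and B2m to the left of 0.

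The other parts of the proteasome moved unequally after UV. Psmb5, the constitutive subunit that Psmb8 replaces, is the only constitutive catalytic subunit with a probe-set of 1 symbol. It gave 1715, 2245 and 2411 in UV-treated CM and 2245 and 1547 in control CM, a difference of 0.07 (SE 0.16, adjusted p = 0.897). In FB the difference was 0.14 (SE 0.13, adjusted p = 0.547). Of the other 20S subunits, which form the barrel, 4 of 10 were higher in CM and 8 of 10 in FB, with Psma1 at 0.79 in CM and 1.07 in FB and Psma4 at 0.94 in CM and 1.39 in FB. Of the 19S cap, which unfolds proteins marked with ubiquitin, 9 of 11 were higher in CM and 9 of 11 in FB, among them the ATPases Psmc4 (0.38 in CM, 0.999 in FB) and Psmc1 (0.51 in CM, 1.27 in FB). None of these genes was lower in either population. Of all probe-sets, 8.62% were called higher in CM after UV and 11.7% in FB.

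The class I heavy chains, the partners of B2m, were higher after UV for 2 of 6 in CM and 3 of 6 in FB. Of all probe-sets, 8.62% were higher in CM and 11.7% in FB, while 8.16% and 11.2% were lower. RT1-CE12, a class I chain, gave 1234, 1324 and 1231 in UV-treated CM, against 825 and 1004 in control CM (0.49, SE 0.09, adjusted p = 0.00293). In FB it rose by 0.89 (SE 0.07, adjusted p = 2.93e-06). RT1-M3-1, which presents formylated peptides, was higher in CM (0.92, SE 0.15, adjusted p = 9.88e-04) and gave -0.12 in FB (adjusted p = 0.611). Class I genes of the rat are near-identical copies, and their probe-sets may share signal. Of the 5 chaperones of class I folding and loading, none was higher, and Hspa5, the chaperone BiP, was lower in CM (-0.42, adjusted p = 0.0361) and in FB (-0.57, adjusted p = 0.00119). Of the MHC class II pathway 0 of 10 were called in CM. In FB 1 of 10 was higher, near the 11.7% of all probe-sets: RT1-DMa, which helps class II to exchange peptides (0.79, adjusted p = 0.0132).

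Of 13 regulators of the interferon response, 2 were higher and 1 lower in CM, where 8.62% of all probe-sets were higher and 8.16% lower. In FB 5 were higher and 1 lower, where 11.7% of all were higher and 11.2% lower. Irf7 gave 148, 249 and 225 in UV-treated CM, against 27.7 and 52.2 in control CM (2.34, SE 0.28, adjusted p = 1.37e-04), and rose by 2.02 (SE 0.23) in FB. Irf1 gave 625, 445 and 396 in UV-treated CM, against 177 and 160.3 in control CM (1.65, SE 0.18), and rose by 1.16 (SE 0.15) in FB. Nfkb1 was the member that fell, by 0.99 in CM and by 1.07 in FB.

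Of 11 interferon-stimulated genes, 4 were higher and 1 lower in CM, and 7 higher and 0 lower in FB. The shares of all probe-sets are those given for the regulators. Gbp2 gave 148, 135 and 133 in UV-treated FB, against 9.54, 10.8 and 6.88 in control FB, the last of which is the floor (3.96, SE 0.29, adjusted p = 1.20e-06). Eif2ak2 rose by 1.84 (SE 0.26) in CM and by 1.92 (SE 0.21) in FB, and Cxcl10, a chemokine, by 1.30 (SE 0.35) in CM and by 1.43 (SE 0.29) in FB. Lgals3bp rose by 0.76 (SE 0.17) in CM and by 1.25 (SE 0.13) in FB. Ifitm3 was the gene lower in CM (-0.48, adjusted p = 0.0100), and it was higher in FB (0.29, adjusted p = 0.0365). None of these genes was called in CM or FB after IR or MS. The lists were chosen with results of these data known.

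**Figure D5:**
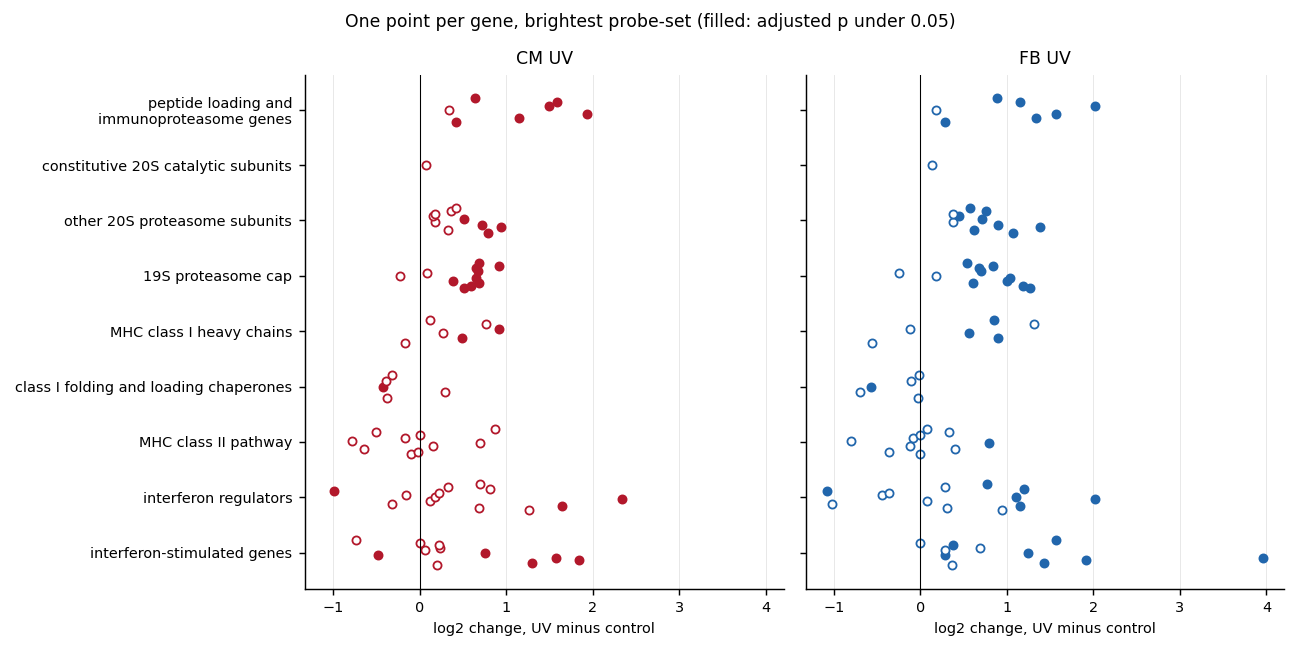
Log2 change after UV (x axis, UV minus control) in CM and in FB, 1 point per gene through its brightest probe-set, for the 7 genes described here and the lists around them (rows), filled where the adjusted p is under 0.05. Psmb5 lies near 0 in both panels, and most of the 19S cap lies above 0.

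Across the 17 pairs of treated and control arrays, other genes followed the mean difference of the 7 genes. The genes with the highest Pearson r were Dnph1 (0.97), Nup50 (0.96), Pgrmc1 (0.95), Nbl1 (0.93) and Lgals3 (0.93). In UV-treated CM their changes were 1.87, 1.14, 1.34, 1.73 and 1.12, and in UV-treated FB 2.37, 1.27, 1.24, 1.02 and 1.79. Only 5 of the 17 pairs are UV pairs and these stand apart from the others, so that r mainly ranks genes by their change after UV.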

How the data were processed

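The deposited values are linear probe-set intensities of 35 rat genome arrays of Affymetrix. The authors' methods name GeneChip software for reading the arrays, and the software that made the intensities is not given in the sources used here. The gcrma, VSN and linear model steps of those methods were not applied to the deposited intensities. All columns were mapped to samples (0 were left unused).

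Here each array was scaled to a common 75th percentile of 8740 probe-sets (59 controls of 8799 were left out), raised to a floor of 6.88 (the 20th percentile of all scaled values), taken to log2 and quantile normalised. Between 14.5% and 24.7% of the probe-sets of an array lay at the floor. The number of arrays limits the precision. The platform annotation gave 7006 probe-sets a single symbol, 308 several and 1426 none. One probe-set that lists B2m among several symbols was left out.

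Treatment effects were fitted over all groups with limma 3.58.1 (R 4.3.3, lmFit and eBayes with a variance trend), with the numbered experiment of each population and stressor as an additive block and 11 residual degrees of freedom. The authors' linear model also included experiment, together with probe effects and an interaction of treatment and experiment, which were not fitted here. Control levels were compared without that block. P-values are two-sided and adjusted by the Benjamini-Hochberg procedure over all probe-sets. Where a title gives no number, the array was counted as experiment 1. The numbers come from the titles: over 17 pairs the correlation of deviations from the group means was 0.063 to 0.797, over 0.1 in 15. The scripts were tested on simulated data. No arrays held identical values (0 pairs).

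Named are all 8 genes with each probe-set of a single symbol, from each context list up to 4 called genes with the smallest adjusted p by the brightest probe-set, and the 5 genes with the highest r to the mean difference of the members among probe-sets brighter than the median. Genes described for IR experiment 3 were chosen after their values were seen. The members and lists were chosen with earlier results of these data known. Alternatives were fits with no block or a random block (statmod 1.5.0), scaling alone, a pseudocount of 16 or a floor at the 40th percentile. Others were a filter on dim probe-sets, scan session or array lot as a further block, and leaving out each experiment number in every comparison at once. Promoters are RefSeq sequences of GRCr8, and all 8 genes matched.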

Additional observations from a re-analysis of the deposited data

How the results depend on the processing

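Counts are of the 11 probe-sets called. Without the replicate block, 6 were called in CM after UV, 7 in FB after UV, 3 for UV minus IR in CM (6 with the block) and 2 in FB (9 with the block). The authors' model also included experiment, and whether same-numbered cultures share animals is not stated. With a random block the first counts were 7 and 8. Leaving out each experiment in turn gave 5 to 8 calls in CM after UV and 7 to 8 in FB after UV. It gave 2 to 5 for UV minus IR in CM, 4 to 6 for UV minus IR in FB, and 0 to 1 for the UV response of CM minus FB. The control levels gave 1 to 4 calls in the UV, 1 to 3 in the IR and 0 to 2 in the MS experiments. Without the FB arrays of IR experiment 3, an alternative added after the data were seen, these were 7 in the UV and 4 in the IR controls, 9 for UV minus IR in FB and 5 in CM. Scan session or array lot as a further block gave 0 calls in CM after IR, as did the main fit, and 5 for UV minus IR in CM. Neither was run for FB. In CM after IR, treated arrays 1 and 3 were of lot 1, and treated array 2 and all controls of lot 2. With lot as a block that comparison therefore rests on pair 2, and it cannot separate lot from IR in the other pairs. No count left the range of 1.5 times the main count with scaling alone, the pseudocount, the higher floor or the filter on dim probe-sets. Over all comparisons, the changes of single probe-sets gave 1482 values under an alternative, of which 1405 stayed on their side of the threshold, 69 were no longer called and 8 were newly called, with no called value turning its sign. The causes were not tested. Values of Psmb9 D10757_at near the floor limit the size of its change in CM.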
